A study of Homo sapiens with 16 samples.

Results

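The transglutaminase family was followed in the RNA of OCI-AML3 cells treated with retinoids. The members were TGM1 to TGM7 and F13A1, taken as the rows of the table of normalized counts whose Ensembl identifier carries one of these 8 gene symbols, so 8 of 62700 genes were members. Of these, 4 (TGM1, TGM2, TGM4 and TGM5) had reads in every library, 3 (TGM3, TGM6 and TGM7) had no read in any library, and F13A1 had 3 reads in all.

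OCI-AML3 is an established human acute myeloid leukaemia line that grows in suspension. The study compared 16 RNA-seq libraries: 4 of untreated cells, 3 of cells given 0.1 µM ATRA, 3 of cells given 0.1 µM Am80, and 3 each of cells given one of these retinoids together with both inhibitors, GSK-LSD1 at 0.1 µM and MB3 at 100 µM. The treatments lasted 3 h. ATRA (all-trans retinoic acid) is the natural ligand of the retinoic acid receptors, Am80 (tamibarotene) is a synthetic retinoid, GSK-LSD1 blocks the histone demethylase LSD1, and MB3 is an inhibitor of the histone acetyltransferase GCN5. No library held cells given the inhibitors without a retinoid, so an action of the inhibitors on their own and an action on the retinoid response cannot be told apart. All libraries came from 1 cell line, and no label says that the replicates were separate cultures, so the p-values measure the spread between libraries.

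The libraries held 11963898 to 33789718 reads, a 2.82-fold range, and Am80 replicate 2 was the deepest. Untreated replicate 4 and Am80 replicate 2 stood apart from their groups: the chi-square per degree of freedom between replicates was 14.3 to 20.7 for pairs with the first, 15.1 to 22.7 for pairs with the second and 2.55 to 5.59 for all other pairs. CD33, PTPRC, SPI1 and CEBPA were present in all libraries. The 6 listed markers of myeloid AML cells summed to 20749 to 22709 normalized counts per library in untreated cells. With ATRA this sum was 19754 to 20835 and with Am80 18782 to 22376. It was lower with the inhibitors, at 16379 to 17964 with ATRA and 17176 to 17544 with Am80. The 8 markers of monocytes and macrophages summed to 1049 to 1133 with Am80 and inhibitors and to 837 to 994 in the other groups. The 5 lymphoid markers summed to 2139 to 3029, with 3 of the 5 at no more than 3 reads in any library. The summed level of 5 epithelial markers (KRT5, KRT14, KRT8, EPCAM and CDH1) was 20.2 normalized counts in Am80 replicate 2 and 2.17 to 8.68 in the other libraries. Keratins carried the sum in Am80 replicate 2, from 39 reads in all. KRT14 stood there at 9.84, KRT5 and KRT8 at 4.66 each, CDH1 at 1.04 and EPCAM at 0. A normalized count is the number of reads of a gene divided by the size factor of its library, which sets libraries of unlike depth on one scale. These are bulk samples, in which fewer cells expressing a gene and less of its RNA per cell cannot be told apart.

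Transglutaminases join the side chain of a glutamine in one protein to a lysine in another, or to a small amine, and so cross-link proteins into stable polymers. The reaction needs calcium and runs through a cysteine in the active site. TGM2, tissue transglutaminase, is the widely expressed member, also binds GTP, and has long been known as a gene that retinoic acid raises in myeloid cells. TGM1, TGM3 and TGM5 cross-link proteins in the epidermis and hair, TGM4 is the prostate form, TGM6 is known from neurons, TGM7 is the least studied, and F13A1 is the catalytic subunit of clotting factor XIII. EPB42, a protein of the red cell membrane skeleton, is a relative without catalytic activity.

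What makes the members a family can be seen in the coding sequence around the active-site cysteine. The sequences are shown because reads of 1 member could be assigned to another only where such stretches are alike. They are 36 bases of the coding strand read from the GENCODE 29 transcripts on GRCh38, found by the in-frame pattern for glycine, glutamine, cysteine and tryptophan, with the cysteine codon in capitals.
TGM2: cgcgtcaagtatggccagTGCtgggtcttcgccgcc
TGM1: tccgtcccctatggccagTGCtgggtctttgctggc
TGM4: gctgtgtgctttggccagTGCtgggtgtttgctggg
TGM5: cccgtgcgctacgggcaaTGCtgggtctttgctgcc
TGM6: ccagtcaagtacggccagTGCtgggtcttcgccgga
F13A1: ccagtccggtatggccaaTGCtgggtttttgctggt
The TGM2 window lies at chr20:38146730-38146765 on the minus strand, in exon 6 of 13, and the TGM4 window at chr3:44901650-44901685 on the plus strand, in exon 7 of 14. The cysteine was codon 277 of TGM2, 377 of TGM1, 268 of TGM4, 278 of TGM5, 274 of TGM6 and 315 of F13A1. TGM6 shared 31 of the 36 bases with TGM2 and TGM4 shared 23, the fewest of the 7 other members. The pattern had no match in EPB42. Over whole transcripts, the longest stretch that TGM2 shared letter for letter was 22 bases with TGM6 and 20 with TGM1 and with TGM3. With TGM4 it was 15 bases. Pairs without TGM2, and whole-transcript stretches with mismatches, were not compared.

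The genes lie apart from one another, with 2 exceptions: TGM3 and TGM6 are neighbours on chromosome 20, and TGM5 and TGM7 on chromosome 15. In the GENCODE 29 annotation of GRCh38, TGM2 spans chr20:38127387-38166578 on the minus strand and TGM4 spans chr3:44874608-44914990 on the plus strand. TGM1 lies at chr14:24249114-24264432 on the minus strand and TGM5 at chr15:43232595-43266857 on the minus strand. The last 394 bases of TGM2 overlap RPRD1B on the other strand, and whether the authors counted by strand is not given in the sources used here.

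In untreated cells TGM2 was a low-level gene. Its normalized counts were 87.9, 94.2, 73.5 and 80.9 in the 4 untreated libraries. With ATRA they were 10522, 11284 and 10924, and with Am80 they were 9961, 9036 and 10194. Every library with a retinoid lay far above every untreated library. The limma fit on log2(normalized count + 1) gave a rise of 7.01 on the log2 scale with ATRA, with an SE of 0.083 and adjusted p = 5.83e-23, which is 129-fold, and of 6.84 with Am80, which is 115-fold (adjusted p = 9.45e-23). Without untreated replicate 4 the rises were 6.99 and 6.82, and without Am80 replicate 2 the rise with Am80 was 6.89.

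A gene was called where the adjusted p was under 0.05 and the change at least 1.5-fold, and all tests ran over the 14643 genes whose mean reached 10 normalized counts. By this rule 9.45% of the genes were called with ATRA and 10.2% with Am80. TGM2 had the 3rd highest rise and the smallest p-value of all 14643 genes in both comparisons. Among the members, TGM2 and TGM4 were called with each retinoid, and TGM1 and TGM5 were not. All 4 members tested had a mean above the filter in the untreated libraries alone.

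**Figure D1:**
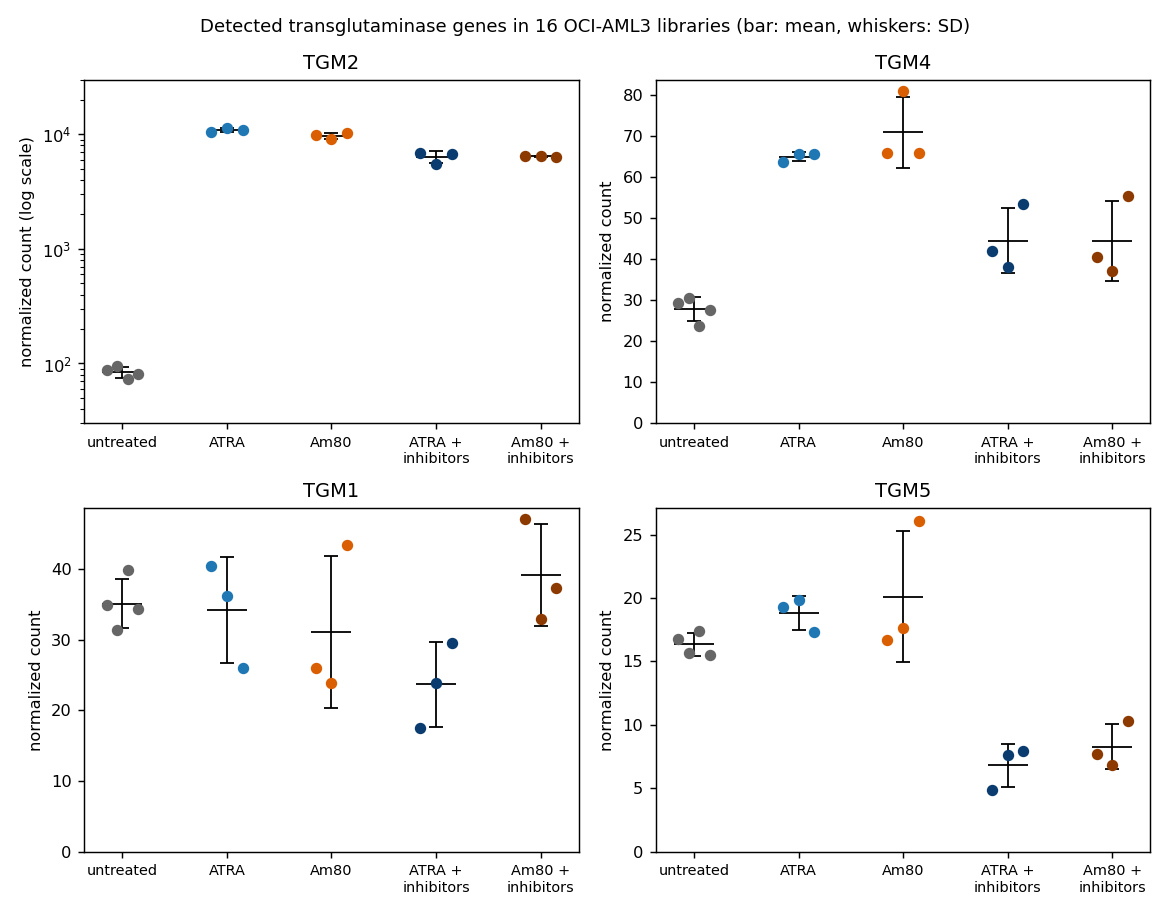
Normalized counts of TGM2 (log axis), TGM4, TGM1 and TGM5 (linear axes from 0) in each of the 16 libraries, grouped by treatment, with a bar at the mean and whiskers of 1 SD. TGM2 stood at 84.1 ± 8.93 in untreated cells and at or above 5474 in every treated library, TGM4 rose with either retinoid, and TGM5 was lowest in the libraries with inhibitors.

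TGM4, the prostate form, rose as well, on a far lower level. Its normalized counts were 29.3, 30.5, 23.7 and 27.7 in untreated cells. They were 63.6, 65.6 and 65.5 with ATRA, and 65.9, 80.8 and 65.8 with Am80. No treated library overlapped the untreated ones. The rise was 1.20 on the log2 scale with ATRA (SE 0.170, limma adjusted p = 1.47e-05) and 1.32 with Am80 (adjusted p = 3.92e-06), which is 2.30-fold and 2.49-fold. Without untreated replicate 4 these were 1.20 and 1.32, and without Am80 replicate 2 the rise with Am80 was 1.22. These counts rest on 19 to 33 reads per library in untreated cells and 66 to 156 with a retinoid.

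TGM1, the keratinocyte form, showed no call with a retinoid alone. Its normalized counts were 34.9, 31.4, 39.9 and 34.3 in untreated cells, 40.5, 36.2 and 25.9 with ATRA, and 26.0, 23.8 and 43.4 with Am80. The groups overlapped. Its log2 change was -0.05 with ATRA, with a 95% confidence interval of -0.54 to 0.43, and -0.22 with Am80, with an interval of -0.70 to 0.27.

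TGM5, an epidermal member and the one of the 4 tested with the fewest reads, had 16.7, 15.7, 17.4 and 15.5 normalized counts in untreated cells. The values were 19.3, 19.8 and 17.3 with ATRA and 16.7, 17.6 and 26.0 with Am80, and the groups overlapped. Its log2 change was 0.19 with ATRA (95% confidence interval -0.34 to 0.72) and 0.26 with Am80 (interval -0.28 to 0.79). These libraries held 12 to 36 reads of TGM5, and both intervals reached past the fold limit, so a 1.5-fold rise was not excluded.

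The other 4 members were at or under the limit set by depth. TGM3, TGM6 and TGM7 had 0 of 296270735 reads. F13A1 had 1 read in untreated replicate 4 and 2 reads in Am80 replicate 2. A floor of 3 reads corresponds to 1.55 to 4.18 normalized counts, depending on the library, and no fold change was computed for these 4 genes. EPB42, the inactive relative beside TGM5, had 3 reads, all in 1 ATRA library.

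**Figure D2:**
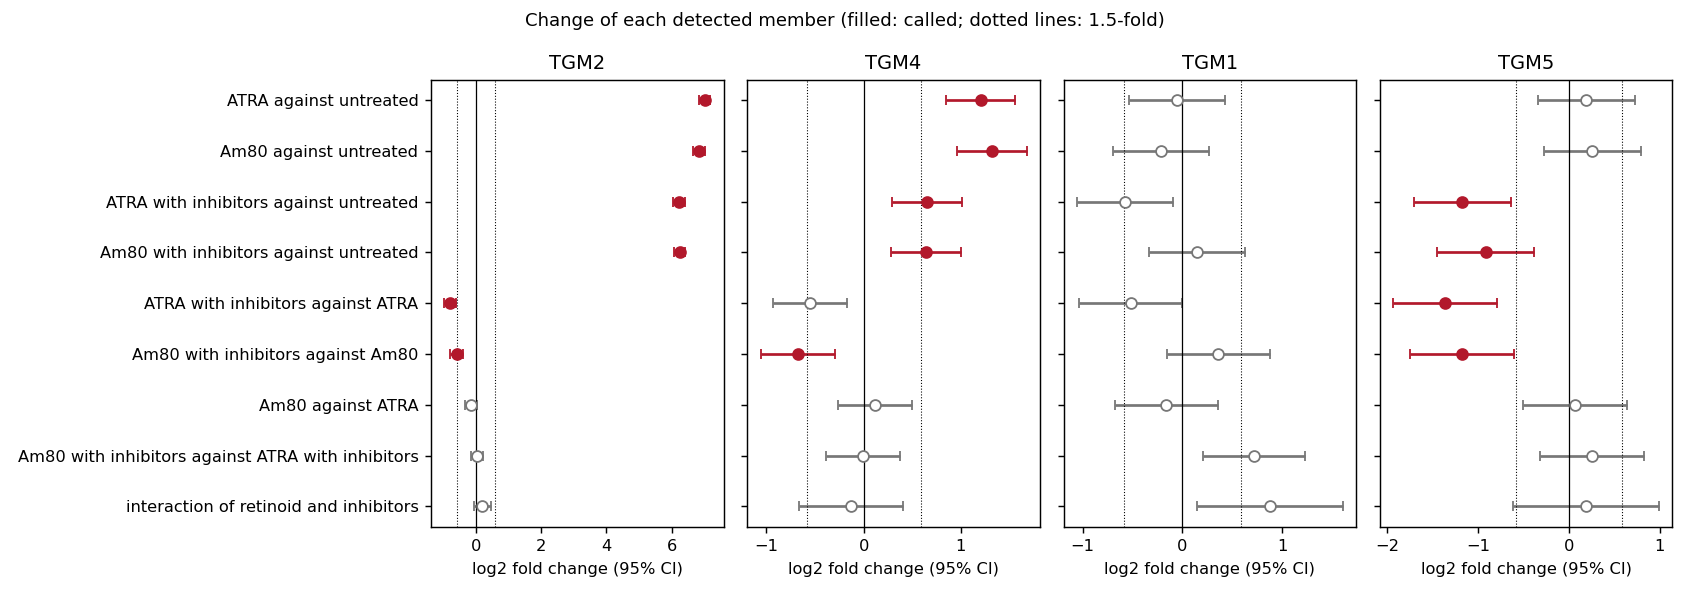
Log2 fold change of TGM2, TGM4, TGM1 and TGM5 in the 9 comparisons from limma, with 95% confidence intervals, where filled points were called, open points were not, and dotted lines mark 1.5-fold. TGM2 and TGM4 lie to the right of 0 in the 4 comparisons with untreated cells, at 6.22 to 7.01 for TGM2 and 0.64 to 1.32 for TGM4, and TGM5 lies to the left in the 4 comparisons of inhibitor groups with untreated or retinoid-only cells.

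To ask whether TGM2 answered more than its relatives, its ratio to each detected member was taken within each library, which nearly removes the scaling of the library. The log2 ratio of TGM2 to TGM4 was 1.56 ± 0.040 (SD, n = 4) in untreated cells and 7.23 ± 0.227 (SD, n = 6) over the retinoid libraries, a difference of 5.66. The difference was 7.06 for the ratio to TGM1 and 6.70 for the ratio to TGM5. In all 3 ratios each of the 6 retinoid libraries lay above each of the 4 untreated ones, and the two-sided exact permutation test gave p = 0.00952, the smallest it can give with these numbers, before and after adjustment over the 3 ratios. The 3 ratios share the TGM2 values already fitted above, and the 6 libraries pool 2 retinoids. Full separation was therefore set by the changes already given, and this p is no further evidence. For each retinoid alone the smallest p that 3 against 4 libraries allow is 0.0571 by the exact permutation test, so those ratios could not pass 0.05.

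**Figure D3:**
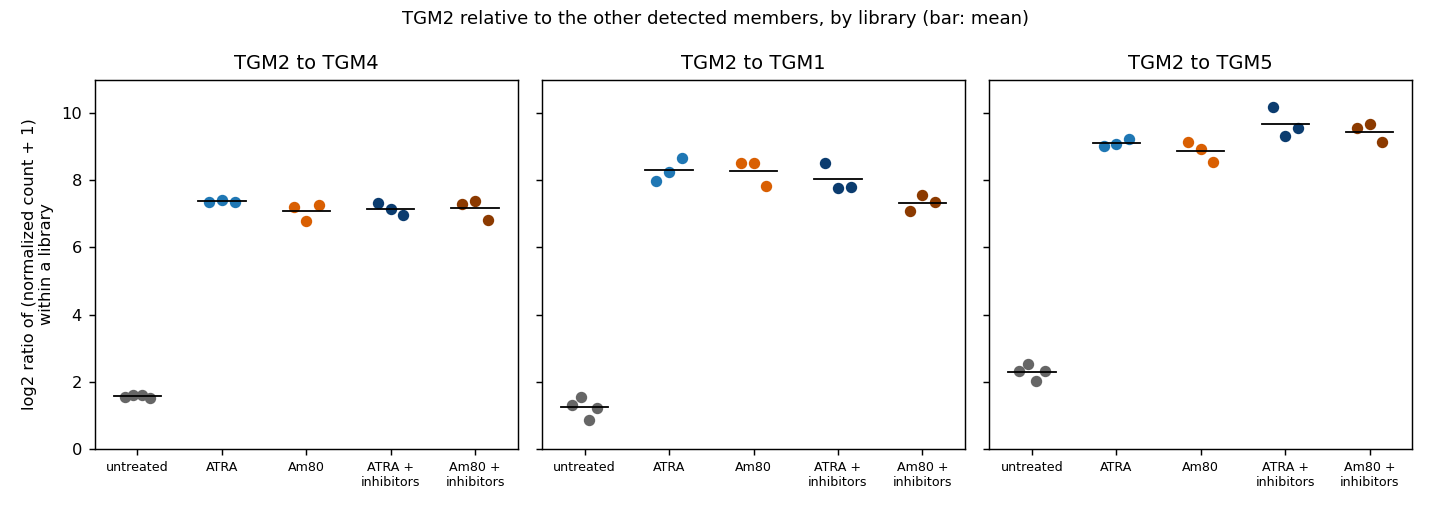
Log2 ratio of TGM2 to TGM4, TGM1 and TGM5 within each library (log2 of normalized count + 1), by treatment, with a bar at the mean of each group. The untreated libraries lie between 0.87 and 2.51, and all libraries with a retinoid lie at or above 6.79 in each ratio.

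Levels of different genes were compared per length, as TPM, the reads of a gene over its merged exon length, scaled to the same total in every library. In untreated cells TGM2 stood at 2.12 ± 0.301 TPM (SD, n = 4) and TGM1 at 1.90 ± 0.214, and their ranges overlapped. TGM4 followed at 1.04 ± 0.138 TPM and TGM5 at 0.913 ± 0.084, again with overlapping ranges, while TGM1 and TGM4 did not overlap. TGM2 thus made up 35.4% of the family's TPM before treatment. With ATRA it reached 280 ± 16.1 TPM (SD, n = 3), and with Am80 230 ± 17.4 TPM, against 2.46 and 2.47 TPM for TGM4. The ranges of TGM4 and TGM1 did not overlap with ATRA but did with Am80. TGM2 then made up 98.1% and 97.8% of the family's TPM. Among all genes, its median rank by TPM moved from 13147 in untreated libraries to 444 with ATRA and 546 with the synthetic retinoid.

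Against untreated cells, the groups with inhibitors still showed high TGM2. The normalized counts were 6837, 5474 and 6761 with ATRA and inhibitors and 6490, 6417 and 6335 with Am80 and inhibitors. These values lay above all untreated libraries and below all libraries with a retinoid alone. The rise over untreated cells was 6.22 and 6.24 on the log2 scale (limma adjusted p = 6.35e-22 and 5.95e-22), and 29.1% and 26% of all genes were called in these comparisons. TGM2 was again the 3rd highest rise in each.

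Adding the inhibitors to a retinoid lowered TGM2. The log2 change was -0.79 (SE 0.089, limma adjusted p = 6.72e-07) against ATRA, a 1.72-fold fall, and -0.60 (adjusted p = 2.07e-05) against Am80, a 1.51-fold fall. Of all genes, 19.5% were called on adding the inhibitors to ATRA (8.15% higher and 11.4% lower) and 15.7% on adding them to Am80 (6.81% higher and 8.9% lower), and among the 4 members tested 2 and 3 fell. Counted from the largest fall, TGM2 was at rank 1025 in the first comparison and 1512 in the second. The fall against Am80 lay just past the fold limit: without Am80 replicate 1 it was -0.58 and without Am80 replicate 3 it was -0.56, both under the limit.

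TGM4 also stood lower with the inhibitors, at 42.0, 38.0 and 53.4 normalized counts with ATRA and inhibitors and 40.6, 37.1 and 55.4 with Am80 and inhibitors. All of these values lay between the untreated libraries and those with a retinoid alone. Against untreated cells the log2 change was 0.65 (limma adjusted p = 0.00256) and 0.64 (adjusted p = 0.00327), both called. Against the retinoid alone it was -0.68 for Am80 (adjusted p = 0.00561), which was called, and -0.55 for ATRA (adjusted p = 0.0170), which was under the fold limit. These calls sit near the fold limit, and 1 library could end them: against untreated cells the change was 0.52 without ATRA and inhibitors replicate 3, 0.47 without Am80 and inhibitors replicate 3, and 0.58 and 0.57 without untreated replicate 3, and against Am80 it was -0.58 without Am80 replicate 2 and -0.56 without Am80 and inhibitors replicate 2.

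TGM5 fell on adding the inhibitors. It had 4.88, 7.61 and 7.96 normalized counts with ATRA and inhibitors and 7.67, 6.87 and 10.3 with Am80 and inhibitors, from 5 to 8 reads per library. Every value lay under the lowest untreated value of 15.5 and the lowest retinoid value of 16.7. The log2 change was -1.36 against ATRA (limma adjusted p = 0.000387) and -1.18 against Am80 (adjusted p = 0.00187). Against untreated cells it was -1.17 (adjusted p = 0.000538) and -0.92 (adjusted p = 0.00473), and the last of these was not called by DESeq2, with an adjusted p of 0.0805.

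TGM1 had 17.6, 23.9 and 29.6 normalized counts with ATRA and inhibitors and 47.1, 33.0 and 37.3 with Am80 and inhibitors. It was not called in any of the 9 comparisons. With ATRA and inhibitors its log2 change against untreated cells was -0.57, with a limma adjusted p of 0.0378, under the fold limit, and without untreated replicate 2 or without ATRA and inhibitors replicate 3 it was past it, at -0.62 and -0.74. Against ATRA alone the change was -0.52 (adjusted p = 0.0885), and it was called at -0.70 without ATRA replicate 3 and at -0.69 without ATRA and inhibitors replicate 3.

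The 2 retinoids were given at the same dose for the same time and could be compared directly. No member was called between Am80 and ATRA, where 7 genes or 0.0478% of all were. That count moved with single libraries, from 0 without ATRA replicate 1 to 88 without Am80 replicate 3. The TGM2 difference was -0.17 on the log2 scale, with a 95% confidence interval of -0.35 to 0.02, and the TGM4 difference was 0.12, with an interval of -0.26 to 0.50. With the inhibitors present, 0 genes were called in limma between the retinoids, where 2656 genes had an unadjusted p under 0.05. edgeR called 0 and DESeq2 13, and in limma 127 were called with only the groups compared in the fit, 86 without untreated replicate 4 and 38 without Am80 replicate 2. The TGM2 difference was 0.02 with an interval of -0.17 to 0.21. The interaction of retinoid and inhibitors also gave 0 called genes in limma, with 2211 genes at an unadjusted p under 0.05, while edgeR called 0, DESeq2 6 and limma 26 without Am80 replicate 3. The largest member difference in these comparisons was that of TGM1, which was 0.72 higher with Am80 and inhibitors than with ATRA and inhibitors (limma adjusted p = 0.174), with an interaction of 0.88 (adjusted p = 0.260). The TGM5 difference between Am80 and ATRA was 0.07, with an interval of -0.50 to 0.64.

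Genes that overlap or flank the members were looked at for reads that might be shared. RPRD1B, which overlaps the end of TGM2 on the other strand, had a mean of 1046 normalized counts in untreated cells and 1294 with ATRA, a log2 change of 0.31 that was under the fold limit. TTI1 and KIAA1755 flank TGM2. TTI1 changed by 0.05 with ATRA, and KIAA1755 had a mean of 0.580 normalized counts in untreated cells and 6.72 with ATRA, under the filter. Beside TGM4, chosen after their values were seen, KIF15 changed by -0.05 with ATRA and ZDHHC3 by 0.31, neither called. ZDHHC3 lies 266 bases from TGM4 on the other strand, with means of 6831 normalized counts in untreated cells and 8452 with ATRA. The means of TGM4 were 27.8 and 64.9. With the inhibitors ZDHHC3 was higher, at 0.37 against ATRA and 0.36 against Am80 on the log2 scale. Whether reads of ZDHHC3 entered the TGM4 count was not tested. AC098649.1, a gene inside TGM4, had 0 reads in untreated cells and 7 in all with ATRA.

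Sequence before the start sites was looked at for the members in the RefSeq promoter table of GRCh38.p14, which matched 5 of the 8 members: TGM3, TGM4, TGM5, TGM7 and F13A1. TGM1, TGM2 and TGM6 are not shown. Retinoic acid receptors bind pairs of hexamers such as AGGTCA and AGTTCA, and both were searched on both strands in windows of 250 bases before to 50 bases after the start. TGM4, which rose, and TGM5, which did not, are printed up to their start sites, with any hexamer in capitals.
TGM4: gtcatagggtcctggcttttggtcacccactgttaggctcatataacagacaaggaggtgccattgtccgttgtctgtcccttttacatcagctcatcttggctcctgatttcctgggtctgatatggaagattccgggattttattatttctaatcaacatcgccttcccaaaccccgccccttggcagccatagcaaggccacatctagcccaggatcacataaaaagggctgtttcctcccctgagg
TGM5: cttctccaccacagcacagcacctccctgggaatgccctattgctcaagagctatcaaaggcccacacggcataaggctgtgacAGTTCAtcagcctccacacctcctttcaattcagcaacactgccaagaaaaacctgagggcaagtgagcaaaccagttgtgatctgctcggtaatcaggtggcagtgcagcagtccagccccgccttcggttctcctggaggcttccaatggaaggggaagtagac
The TGM4 stretch is chr3:44874358-44874607 on the plus strand and the TGM5 stretch is chr15:43266929-43267178 on the minus strand. TGM4 held neither hexamer in its window, TGM5 held AGTTCA once, starting at -166, and TGM3 held AGGTCA once on the other strand, at -89. One or both hexamers occurred in 22.6% of the 35093 promoter windows searched, 13.8% for AGGTCA and 10.4% for AGTTCA. These are matches of letters in a window and not sites of binding.

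Partners and substrates of TGM2 were followed in the same fit. Of 18 binding partners and substrates of TGM2, 17 were tested, and 2 rose with ATRA and with Am80 while none fell, where 6.52% and 6.41% of all genes rose and 2.94% and 3.76% fell. In each of the 2 groups with inhibitors, 5 of the 17 were higher than in untreated cells and none was lower. Of all genes, 14.2% were higher and 14.8% lower with ATRA and inhibitors, and 12.9% and 13.1% with Am80 and inhibitors. The median log2 change over the 17 was 0.03 with ATRA and -0.02 with Am80, beside -0.02 and -0.01 over all genes. The 2 genes were ITGB3, the integrin beta 3 chain, at 1.78 and 1.62 (limma adjusted p = 4.26e-06 and 1.26e-05), and MFGE8, a bridging protein that ties apoptotic cells to integrins, at 1.44 and 1.38 (adjusted p = 1.96e-05 and 3.01e-05). ITGB3 fell again on adding the inhibitors, by 0.85 against ATRA and by 0.79 against Am80, and MFGE8 fell by 0.69 against ATRA. On adding the inhibitors to ATRA, 2 of the 17 were called lower and 2 higher, where 11.4% and 8.15% of all genes were. On adding them to Am80, only 1 was called lower and 1 higher, where 8.9% and 6.81% of all genes were. FN1, the fibronectin to which TGM2 binds at the cell surface, changed by 0.09 with ATRA and -0.03 with Am80, without a call. SDC4, a heparan sulfate syndecan, at 0.55 and 0.57, and VIM, vimentin, at -0.47 and -0.45, had adjusted p-values under 0.05 but stayed under the fold limit. With the inhibitors, RB1, the retinoblastoma protein, rose by 0.75 against ATRA. ADGRG1, an adhesion receptor for TGM2, was under the filter, with means of 1.32 normalized counts in untreated cells and 10.9 with ATRA.

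Substrates of the other members were present in part. Of 14 cornified envelope proteins, the substrates of TGM1, TGM3 and TGM5 in skin, 4 were tested (PPL, S100A10, S100A11 and CSTA). None was called in the retinoid comparisons or on adding the inhibitors. The shares of all genes called were 9.45% with ATRA and 10.2% with Am80, and 19.5% and 15.7% on adding the inhibitors. Such shares leave few calls to expect among 4 genes, so the lack of one says little about these substrates. In untreated cells S100A11 stood at a mean of 3631 normalized counts, CSTA at 2574 and S100A10 at 756. IVL, LORICRIN, KRT1 and the small proline-rich genes had at most 1 read in a library. Of 9 genes listed with factor XIII as partners, substrates or clotting genes, 2 were tested, and the fibrinogen genes FGA, FGB and FGG had no reads. F2R, the thrombin receptor and 1 of these 2, rose by 1.83 with ATRA and 2.26 with Am80 (limma adjusted p = 1.79e-06 and 7.92e-08). It fell by 1.09 and 1.72 on adding the inhibitors. Of all genes, 6.52% and 6.41% rose with the retinoids, and 11.4% and 8.9% fell on adding the inhibitors. The 5 endothelial and fibroblast markers summed to 1048 to 1256 normalized counts in untreated cells and 2575 to 2846 with a retinoid alone, nearly all from PECAM1, while CDH5 had at most 1.11 in any library.

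Known retinoid response genes give TGM2 a scale. Of 19 listed, 17 were tested and 15 rose with each retinoid, where 6.52% and 6.41% of all genes rose. Among the 17, 3 genes (CYP26A1, CYP26B1 and PTGES) were at the floor in untreated cells. These 3 passed the filter only through treated libraries and could only rise, so their rises are no support. The median log2 change over the 17 was 3.14 with ATRA and 3.37 with Am80, also with these 3 genes set to their bound. The list was chosen with earlier results of these libraries known, so this is no independent evidence of its direction. HIC1, a transcriptional repressor, rose by 7.01 and 6.89 and DHRS3, a retinaldehyde reductase, by 6.41 and 6.46, next to the 7.01 and 6.84 of TGM2. CYP26A1, an enzyme that breaks down retinoic acid, had no reads in untreated cells and was at least 33.5-fold higher with ATRA and 27.6-fold with Am80, taking the floor of 3 reads in each library. The receptor RARA was under the fold limit with either retinoid, at 0.48 and 0.38, and rose on adding the inhibitors, by 0.84 and 1.16. Adding the inhibitors to ATRA lowered 7 of the 17 and raised 2, and adding them to Am80 lowered 6 and raised 2. The median change of the 17 was -0.19 and -0.40. Of all genes, 11.4% were lower and 8.15% higher on adding the inhibitors to ATRA, and 8.9% and 6.81% on adding them to Am80.

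**Figure D4:**
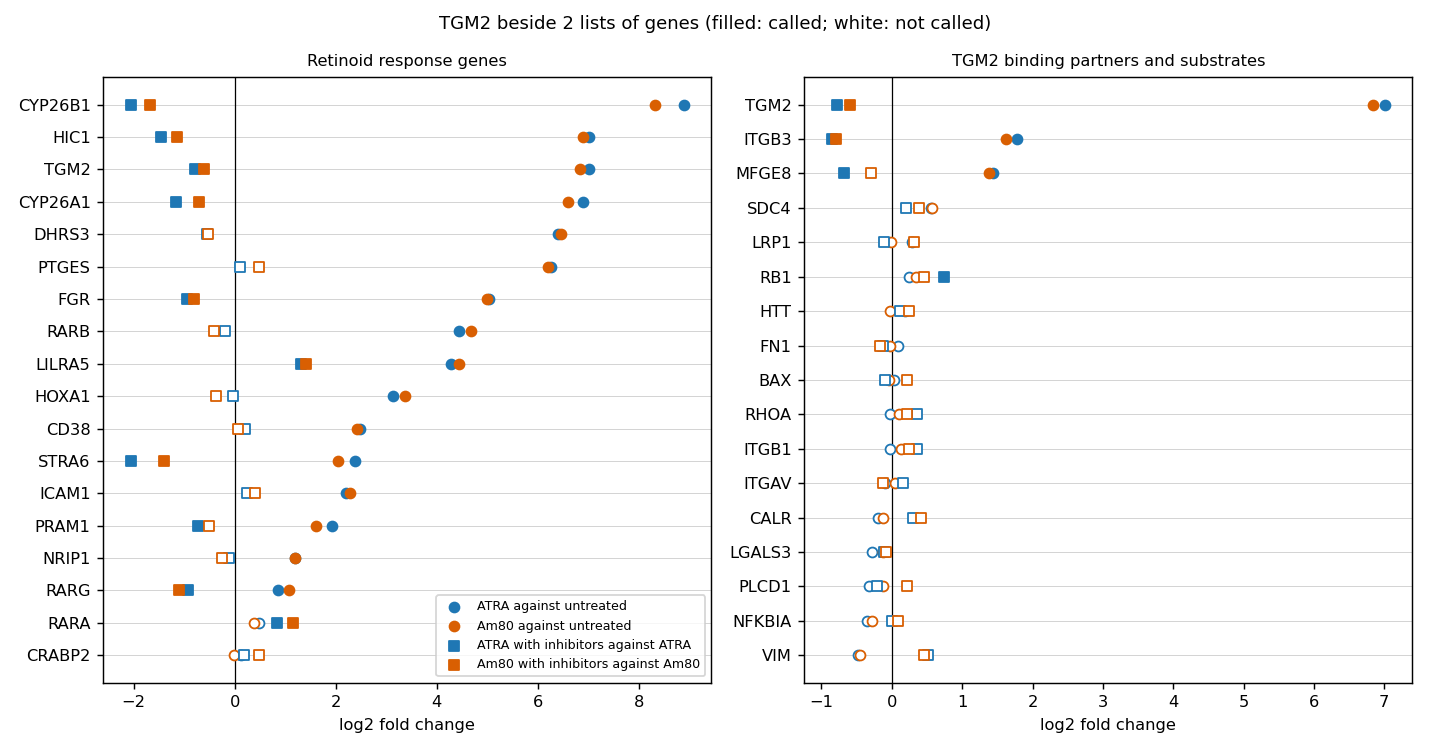
Log2 fold change of TGM2 and of the tested retinoid response genes (left) and of TGM2 partners and substrates (right, 1 tested gene not shown), with circles for a retinoid against untreated cells and squares for adding the inhibitors, where filled symbols were called and the fitted values of CYP26A1, CYP26B1 and PTGES, at the floor in untreated cells, depend on the pseudocount. TGM2 sits at 7.01 and 6.84 near the top of the left panel, and ITGB3 and MFGE8 are the 2 partners that rose.

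The genes whose pattern over the 16 libraries was most like that of TGM2 were found by Pearson correlation of log2(normalized count + 1) among 11300 genes whose mean reached 50. They were THBD (r = 0.998), the endothelial thrombin cofactor thrombomodulin, CYP26A1 (0.998), TBC1D8 (0.998), LRG1 (0.997) and RHBDL3 (0.997). These values rest on a step between untreated and treated libraries that many genes share. By Spearman correlation none of these 5 was among the top 5, which IQSEC2 led, and over the 10 libraries without inhibitors 2 of them were. THBD stood at 2474 ± 142 normalized counts in untreated cells (SD, n = 4) and 21446 ± 328 with ATRA (SD, n = 3), a log2 change of 3.12. RHBDL3, a rhomboid-like protease, went from 56.8 ± 5.33 to a mean of 2185, a change of 5.24, and was 0.88 lower on adding the inhibitors to ATRA. Within the family, the correlation with TGM2 was 0.85 for TGM4, -0.20 for TGM1 and -0.20 for TGM5.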

How the data were processed

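RNA-seq values of 16 OCI-AML3 libraries were used. The deposited signal values are DESeq2-normalized counts: per the labels the authors used FastQC, cutadapt, STAR, featureCounts and DESeq2, with no version given. Aligner build, annotation and strand setting are not given in the sources used here. Reads were recovered by undoing each size factor, with 100% of values whole in every library at a tolerance of 0.0001 reads. Depth and floors cover counting error only. Positions and exon lengths came from GENCODE 29 on GRCh38 (58207 genes, at least 99.8% of reads), and 62700 of 62700 identifiers matched a symbol.

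Log2(normalized count + 1) of genes with a mean of at least 10 was fitted in limma 3.58.1 (R 4.3.3) with a mean-variance trend, 1 coefficient per group, all 16 libraries and Benjamini-Hochberg adjustment per comparison (9 comparisons). Genes were called at an adjusted p under 0.05 and 1.5-fold. The fit was also run on simulated counts with the same spread setting for every gene and no outlying library. That run does not cover the spread seen between these replicates. Ratios were tested by exact permutation (scipy 1.17.1). Groups followed the sample titles. Alternatives were pseudocounts, filters, quantile scaling, smaller fits, edgeR 4.0.16, DESeq2 1.42.0, thinned reads, a replicate block and leaving out each library. The count test on recovered reads, edgeR's quasi-likelihood test, called 1414 genes with ATRA and 1583 with Am80, beside 1384 and 1490 in limma. The text names every member, up to 4 called and 2 uncalled genes per list, the 5 genes most like TGM2 and genes overlapping members or beside TGM2. The members and lists were chosen with earlier results of these data known. For 1 gene of the partner list, counted with it, values are not reported here.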

Additional observations from a re-analysis of the deposited data

How the results depend on the processing

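Of 1015 alternative values, 975 kept their direction and their side of the threshold. The rises of TGM2 and TGM4 with either retinoid alone were called under every alternative that gave a value, and so was the fall of TGM5 on adding the inhibitors to either retinoid. A minimum mean of 50 left out TGM1, TGM4 and TGM5.

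The TGM4 change with Am80 and inhibitors against untreated cells lost its call with a pseudocount of 5 (0.58), with reads thinned to the shallowest library (0.55) and with scaling to total reads (0.46), and that with ATRA and inhibitors with scaling to total reads (0.51). Quantile normalization took away its call against Am80 (-0.52), and DESeq2 that of TGM5 with Am80 and inhibitors against untreated cells (-0.98). By adjusted p alone, TGM1 with ATRA and inhibitors against untreated cells (-0.57) and TGM4 against ATRA (-0.55) gained a call, as they did with scaling to total reads (-0.72 and -0.69), where TGM1 against ATRA also did (-0.66). Scaling to total reads was chosen after seeing the data and moved the median of all genes by -0.15 and -0.18 for the inhibitor groups against untreated cells. Signs of small uncalled differences turned for TGM2 and TGM4 between the 2 combinations with quantile normalization (TGM2 -0.000358, TGM4 0.052), for TGM2 there with total reads (-0.016), and for TGM1 with Am80 and inhibitors against untreated cells (-0.037).

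Leaving out 1 library gave ranges for TGM1 of -0.18 to 0.13 (ATRA against untreated), -0.74 to -0.38 (ATRA and inhibitors against untreated) and -0.70 to -0.33 (against ATRA). For TGM4 they were 0.52 to 0.75 and 0.47 to 0.76 (combinations against untreated), -0.69 to -0.45 (against ATRA), -0.85 to -0.56 (against Am80), -0.18 to 0.13 (between combinations) and -0.30 to 0.0081 (interaction). For TGM2 they were -0.65 to -0.56 (against Am80) and -0.084 to 0.076 (between combinations), and for TGM5 -0.12 to 0.18 (Am80 against ATRA) and -0.0054 to 0.38 (interaction).

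Replicate numbers did not pair the libraries: of 30 same-numbered pairs, 4 had correlated deviations over 0.1 (median -0.01). With the replicate number as a block, TGM2 rose by 6.99 with ATRA and 6.82 with Am80, and TGM4 by 1.20 and 1.32, with no call of a member changed. The block gives untreated replicate 4, the only one of its number, no weight in these values. The fit with the block called 34 genes between Am80 and ATRA, in place of 7, and 84 between the combinations, in place of 0. Without a block, leaving out untreated replicate 4 gave similar counts, 37 and 86. Depth limits the members other than TGM2, with 0 to 156 reads per library.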
